A study of Mus musculus with 4 samples.

Results

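The Hes and Hey genes encode basic helix-loop-helix repressors through which Notch receptors act on the nucleus. In 4 poly(A) RNA libraries labelled as neural stem cells of the mouse cortex, 8 genes were followed: Hes1, Hes5, Hes6, Hes7, Hey1, Hey2, Heyl and Nrarp. They were chosen by symbol as the Notch-linked Hes and Hey genes with Nrarp, and all 8 were found among the 24421 gene symbols counted. The cortex of C57BL/6J embryos was dissociated at embryonic day 17, and the cells grew for 1 day with the growth factors bFGF and EGF. Of the libraries, 2 are labelled Prrc2bf/f; Nestin-Cre, which joins floxed Prrc2b alleles to a Cre recombinase under the control of Nestin (gene Nes) sequence, an intermediate filament of neural progenitors, and 2 are labelled Prrc2bf/f, with the same floxed alleles and no Cre named. They are called Nestin-Cre and floxed libraries here. The sample labels give cultured neural stem cells, whereas the series' design text speaks of brain tissue, and which of these the libraries hold was not tested. The comparison addresses how transcript levels differ when Cre is present to delete Prrc2b, a gene of the proline-rich coiled-coil family. The labels do not say which exon is floxed, whether embryos were pooled, or whether the replicates are separate embryos. The p-values here therefore reflect differences among these 4 libraries alone, and that spread may be technical.

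When a Notch ligand on a neighbouring cell engages the receptor, the receptor's intracellular domain is released, enters the nucleus and joins the DNA-binding protein RBPJ to switch on Hes and Hey genes. In the embryonic cortex Hes1 and Hes5 are the best known of these genes, and their proteins keep radial glia undifferentiated by repressing proneural genes. Hes6 is the exception in the family, since its protein counteracts Hes1 and favours neuronal differentiation. Nrarp encodes a small ankyrin repeat protein, not a helix-loop-helix factor, which is induced by Notch and dampens the receptor's nuclear complex.

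Promoters from RefSeq (GRCm38.p6) were found for 5 of the 8 members. They are Hes5, Hes6, Hes7, Hey2 and Nrarp, and Hes6 has 2 listed starts. Promoters of Hes1, Hey1 and Heyl are not shown. Each sequence runs 5′ to 3′ on the gene's strand from 250 bases before the transcription start to 50 bases after it, and capitals mark the RBPJ core motif TGGGAA on either strand. These members are shown because a promoter was found for them. Hes5, Nrarp and Hes6 were higher in the Nestin-Cre libraries, while the fold changes of Hes7 and Hey2 did not pass the test. The called members Hes1 and Hey1 are missing, and a link between motifs and fold changes was not tested.

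Hes5, chr4:154960673-154960972, plus strand: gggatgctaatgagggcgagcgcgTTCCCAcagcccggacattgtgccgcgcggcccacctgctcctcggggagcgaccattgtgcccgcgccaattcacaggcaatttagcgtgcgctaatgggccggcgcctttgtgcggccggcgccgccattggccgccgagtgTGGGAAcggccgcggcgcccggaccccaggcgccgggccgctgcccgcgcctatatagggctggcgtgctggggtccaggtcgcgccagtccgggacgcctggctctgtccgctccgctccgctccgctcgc
Nrarp, chr2:25180508-25180807, plus strand: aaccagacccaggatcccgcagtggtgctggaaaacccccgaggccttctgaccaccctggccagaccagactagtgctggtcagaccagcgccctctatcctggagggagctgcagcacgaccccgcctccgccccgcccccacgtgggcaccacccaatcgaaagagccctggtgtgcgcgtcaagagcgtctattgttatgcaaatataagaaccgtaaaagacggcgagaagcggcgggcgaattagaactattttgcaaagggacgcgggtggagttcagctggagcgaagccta
Hes6, first start, chr1:91413989-91414288, minus strand: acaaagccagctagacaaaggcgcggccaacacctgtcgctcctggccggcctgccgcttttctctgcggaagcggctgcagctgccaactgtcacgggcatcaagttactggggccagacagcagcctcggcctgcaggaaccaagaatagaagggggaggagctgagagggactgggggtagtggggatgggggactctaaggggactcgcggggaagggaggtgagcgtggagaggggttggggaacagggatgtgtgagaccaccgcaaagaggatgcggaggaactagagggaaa
Hes6, second start, chr1:91413173-91413472, minus strand: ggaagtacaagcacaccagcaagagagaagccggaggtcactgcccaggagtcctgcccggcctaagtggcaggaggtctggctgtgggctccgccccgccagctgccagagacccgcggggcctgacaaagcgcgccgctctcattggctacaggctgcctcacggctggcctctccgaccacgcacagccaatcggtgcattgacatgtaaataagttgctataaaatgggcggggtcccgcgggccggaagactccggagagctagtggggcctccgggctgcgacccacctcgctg
Hes7, chr11:69120203-69120502, plus strand: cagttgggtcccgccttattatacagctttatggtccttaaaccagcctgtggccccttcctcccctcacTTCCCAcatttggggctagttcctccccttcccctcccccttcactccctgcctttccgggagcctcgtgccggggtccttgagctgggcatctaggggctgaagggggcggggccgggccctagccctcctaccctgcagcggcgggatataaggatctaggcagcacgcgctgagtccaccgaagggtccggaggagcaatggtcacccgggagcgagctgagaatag
Hey2, chr10:30842734-30843033, minus strand: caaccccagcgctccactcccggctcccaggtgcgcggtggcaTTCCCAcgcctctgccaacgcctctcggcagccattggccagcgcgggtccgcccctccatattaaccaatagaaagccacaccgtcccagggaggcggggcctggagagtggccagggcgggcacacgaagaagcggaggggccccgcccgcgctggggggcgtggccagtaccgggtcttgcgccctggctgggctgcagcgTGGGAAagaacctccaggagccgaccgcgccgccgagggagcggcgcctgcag

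The core motif was searched on both strands. Hes5 held 2 matches, beginning 226 and 82 bases before the start, Hey2 held 2, beginning 207 and 3 bases before it, and Hes7 held 1, beginning 180 bases before it. All 5 were also matches of the longer motif GTGGGAA, which contains the core. Neither Nrarp nor either start of Hes6 held the core motif. Among 32851 promoters of this length, 25.6% held at least 1 core motif and 3.79% held at least 2, and 6.38% held the longer motif. The N box CACNAG, a sequence bound by Hes proteins, was found in Nrarp, in Hes7 and at the second start of Hes6, and in 42.5% of all promoters. The related class C site CACGNG was found in Nrarp, Hes7 and the first start of Hes6, and in 27.5% of all promoters. An N box and a class C site of Hes7 were the same 6 bases. These matches describe the letters of the windows and were not set against binding data.

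Counts assigned to genes ranged from 25936794 to 28263272 per library, so that 3 counts, the limit that a count of 0 allows, equal 0.106 to 0.116 CPM (gene counts scaled to the library total), which covers counting error only. The chi-square of counts per gene was 2.203 between the Nestin-Cre libraries and 1.96 between the floxed libraries, against 20.4 to 21.2 between groups. Total Prrc2b counts were 16245 and 14886 in Nestin-Cre libraries and 15544 and 16751 in floxed libraries (log2 fold change -0.04 ± 0.02 SE, adjusted p = 0.134), and a total over the gene does not check a deletion whose exons are not named. Summed over Uty, Kdm5d, Eif2s3y and Ddx3y, genes of the Y chromosome, there were 0 counts in each Nestin-Cre library, against 1784 and 1824 in the floxed libraries. Genotype, Cre and the sex of the embryos therefore cannot be told apart in any comparison that follows. Markers of neural stem and radial glial cells were counted in every library, among them Sox2 at 444 CPM on average in both groups. Their levels varied, with Hopx at 31.7 CPM in Nestin-Cre and 45.2 CPM in floxed libraries, and 6 of 10 were lower in Nestin-Cre libraries. The neuronal marker Map2 (859 CPM in Nestin-Cre, 764 CPM in floxed libraries) and the oligodendrocyte lineage marker Olig1 (857 and 758 CPM) were also abundant. Mean CPM are given with the SD of the 2 libraries of a group, and log2 fold changes, Nestin-Cre over floxed, with the SE.

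Of the 8 members, 4 were higher in Nestin-Cre libraries (Hes5, Nrarp, Hes6 and Hes1), 1 was lower (Hey1) and 3 did not pass (Hes7, Hey2 and Heyl) in edgeR's quasi-likelihood test at an adjusted p under 0.05. All 8 passed the filter on low counts. Over the 15012 genes tested, 33.1% were called, 15.1% as higher and 18.1% as lower, so a call by itself was common. The median log2 fold change of the members was 0.22, against 0.0047 over all genes tested. For 5 of 8 members all Nestin-Cre libraries lay on one side of all floxed libraries, which was so for 64.9% of all genes tested and is no result about the members. With upper quartile scaling the calls over all genes were 2939 higher and 2288 lower, in place of 2263 higher and 2711 lower, and of the members Hey1 alone lost its call.

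**Figure D1:**
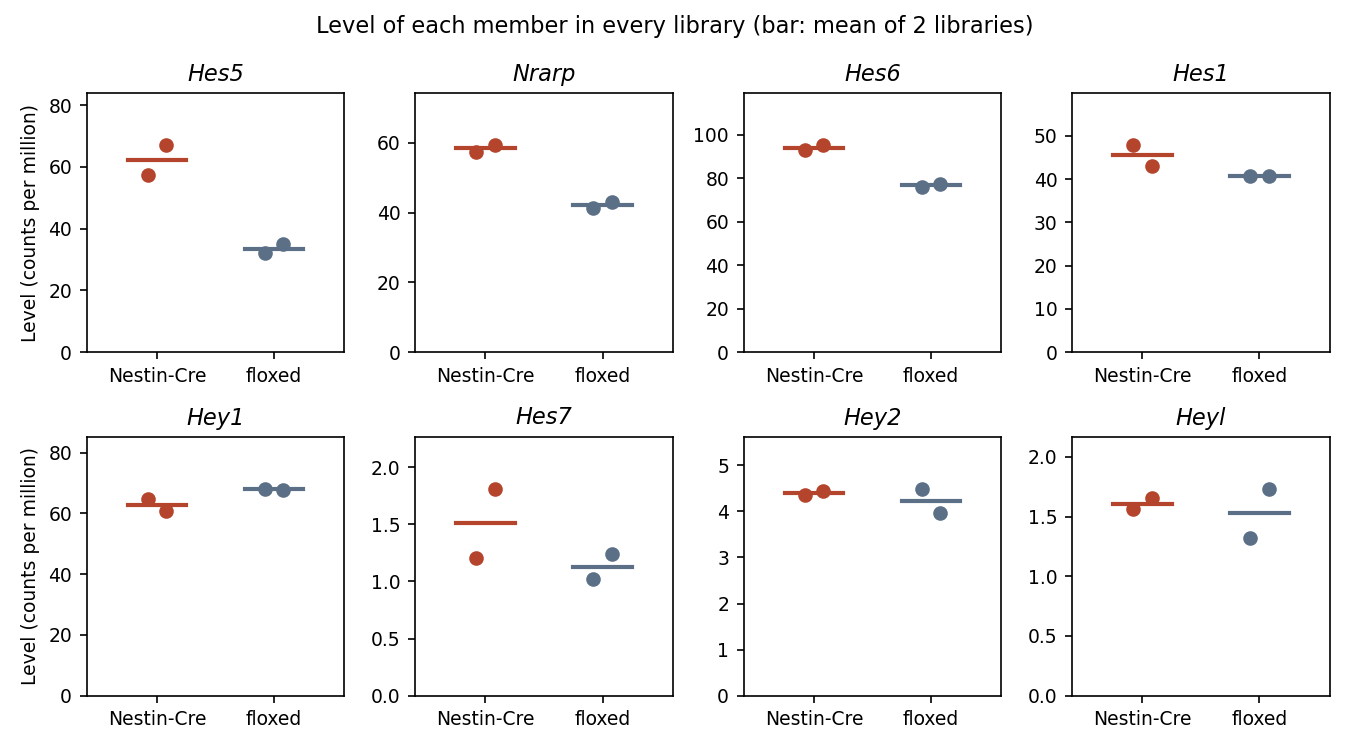
Level of each member in CPM (vertical axis from 0, scaled per gene) in every library, Nestin-Cre left and floxed right; points are libraries and bars the mean of 2. The points of the groups are separate for Hes5, Nrarp, Hes6, Hes1 and Hey1, with Hes5 at 57.5 and 67.0 CPM in Nestin-Cre libraries against 32.0 and 34.9 CPM in floxed libraries, and they overlap for Hes7, Hey2 and Heyl.

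Of the members, Hes5 changed most. The gene spans chr4:154960923-154962371 in mm10 on the plus strand, with 3 exons and 501 coding bases in its longest coding transcript. Its counts were 1622 and 1739 in Nestin-Cre libraries, against 847 and 986 in floxed libraries. Every Nestin-Cre library stood well above every floxed library, and the Nestin-Cre pair was the more spread. The means were 62.3 ± 6.75 CPM in Nestin-Cre libraries and 33.4 ± 2.06 CPM in floxed libraries, a ratio of 1.85 with a 95% interval of 1.70 to 2.00 (log2 fold change 0.89 ± 0.06, adjusted p = 1.5e-15). Of the 15012 genes, 173 had a larger log2 rise (1.15%). The call held under 15 of 15 alternatives, with log2 fold changes of 0.75 to 0.99, the lowest of them with GC content and length corrected. The annotation places the antisense transcript Gm20421 over exons of Hes5, and without a stated strand setting their reads cannot be told apart.

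Nrarp, the Notch-induced feedback gene, was the next in size. This single-exon gene, at chr2:25180758-25183339 on the plus strand, holds 342 coding bases. It had 1621 and 1539 counts in Nestin-Cre libraries, against 1095 and 1216 in floxed libraries. The groups did not overlap, and the libraries within each lay close together. Means were 58.4 ± 1.32 CPM in Nestin-Cre libraries and 42.2 ± 1.195 CPM in floxed libraries (log2 fold change 0.46 ± 0.05, ratio 1.38, 95% interval 1.29 to 1.47, adjusted p = 2.9e-10). The rise passed in 15 of 15 alternatives, at 0.43 to 0.49, also against a 1.2-fold change (adjusted p = 0.00036). An antisense gene, Gm38287, overlaps its exon, so the same limit on strand holds.

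Hes6, whose protein opposes Hes1, is at chr1:91411483-91414038 on the minus strand. It was counted 2626 and 2470 times in Nestin-Cre libraries and 2016 and 2192 times in floxed libraries. Once depth was allowed for, both Nestin-Cre libraries were above both floxed libraries. Means were 94.2 ± 1.51 CPM in Nestin-Cre libraries and 76.8 ± 1.03 CPM in floxed libraries (log2 fold change 0.29 ± 0.04, ratio 1.22, 95% interval 1.16 to 1.29, adjusted p = 1.0e-07). With GC content and length corrected, the log2 fold change was 0.19 (adjusted p = 9.1e-05). A test against a 1.2-fold change did not call it (adjusted p = 0.766).

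Hes1, the repressor whose level oscillates in neural progenitors, rose by much less than Hes5. Its position is chr16:30064384-30067796, plus strand. Counts were 1349 and 1118 in Nestin-Cre libraries and 1077 and 1153 in floxed libraries. In CPM the Nestin-Cre libraries stood at 47.8 and 43.1 and the floxed libraries at 40.7 and 40.8, so the groups were separate but the lower Nestin-Cre library came close. The log2 fold change was 0.15 ± 0.05 (ratio 1.11, 95% interval 1.03 to 1.197, adjusted p = 0.0213). The call rested on each of 3 libraries: it was lost without Nestin-Cre replicate 1 (0.07, adjusted p = 0.443), floxed replicate 1 (0.15, adjusted p = 0.0572) or floxed replicate 2 (0.15, adjusted p = 0.0514). It was also lost with DESeq2 (adjusted p = 0.207), with no low-count filter (adjusted p = 0.0782), with GC content and length corrected (0.10, adjusted p = 0.122) and against a 1.2-fold change (adjusted p = 1.00).

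Hey1, a repressor used by neural precursors and by blood vessels, went the other way. At chr3:8663359-8667256 on the minus strand, it had 1827 and 1577 counts in Nestin-Cre libraries and 1804 and 1913 in floxed libraries. The CPM were 64.8 and 60.8 in Nestin-Cre libraries, below the 68.1 and 67.7 of the floxed libraries. The fall was small, with a log2 fold change of -0.12 ± 0.04 (ratio 0.921, 95% interval 0.867 to 0.978, adjusted p = 0.0292). It missed the threshold without Nestin-Cre replicate 2 (-0.08, adjusted p = 0.317), floxed replicate 1 (-0.12, adjusted p = 0.0871) or floxed replicate 2 (-0.12, adjusted p = 0.0619). It also missed with DESeq2 (adjusted p = 0.223), upper quartile scaling (-0.09, adjusted p = 0.0937), no low-count filter (adjusted p = 0.0731) and against a 1.2-fold change (adjusted p = 1.00), and its sign held in 15 of 15 alternatives.

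**Figure D2:**
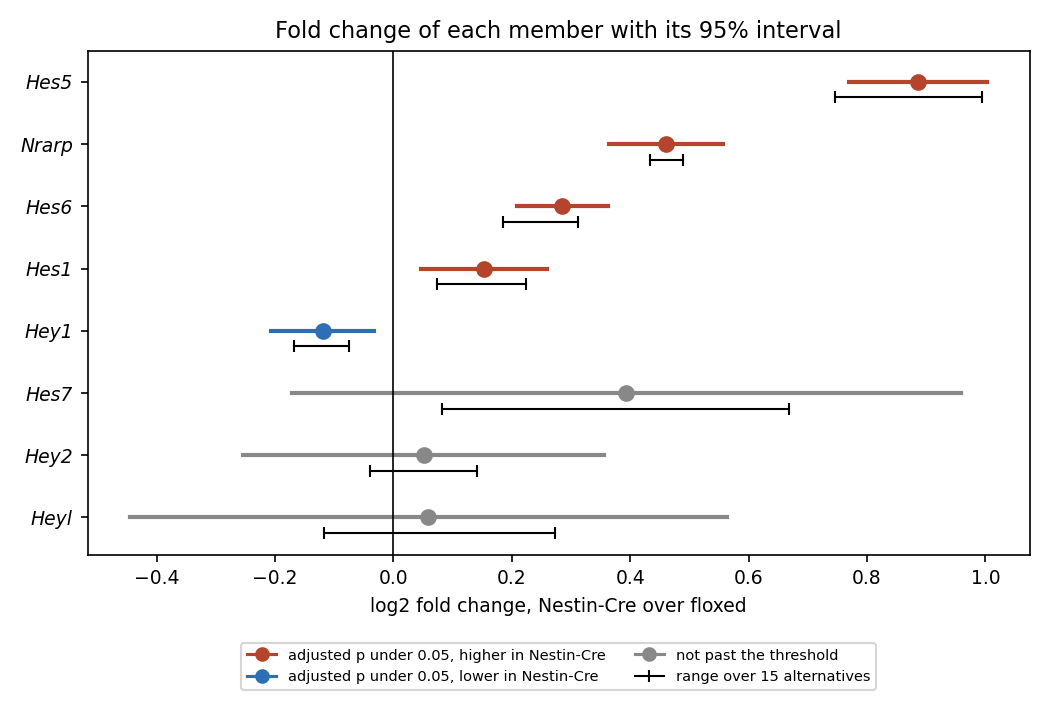
Log2 fold change of each member, Nestin-Cre over floxed (horizontal axis), with points for the fit, coloured lines for its 95% interval and thin black lines for the range over 15 alternatives. Hes5 at 0.89, Nrarp at 0.46, Hes6 at 0.29 and Hes1 at 0.15 lie above 0, Hey1 at -0.12 below, and the intervals of Hes7, Hey2 and Heyl span 0.

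The other members were scarce. Hes7, known for the segmentation clock that patterns somites, had 34 and 47 counts in Nestin-Cre libraries and 27 and 35 in floxed libraries. These counts gave 1.21 and 1.81 CPM in Nestin-Cre libraries, against 1.02 and 1.24 CPM in floxed libraries, so the groups overlapped. The ratio of 1.31 had a 95% interval of 0.888 to 1.94 (adjusted p = 0.298), which spans both no change and a rise as large as that of Hes5. The protein-coding gene 9130213A22Rik overlaps exons of Hes7 on the other strand.

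Hey2, an arterial and cardiac regulator, had 123 and 115 counts in Nestin-Cre libraries and 119 and 112 in floxed libraries, with a ratio of 1.04 (95% interval 0.839 to 1.28, adjusted p = 0.833). Heyl, which is known from vascular smooth muscle, had 44 and 43 counts in Nestin-Cre libraries and 35 and 49 in floxed libraries, with a ratio of 1.04 (95% interval 0.735 to 1.48, adjusted p = 0.886). For both genes the floxed libraries lay on either side of the Nestin-Cre libraries in CPM. Without floxed replicate 2 the log2 fold change of Hey2 turned to -0.04, and without floxed replicate 1 that of Heyl turned to -0.12.

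Levels of different genes were compared as CPM per kilobase of annotated exon. In Nestin-Cre libraries Hes6 stood at 52.1 ± 0.833, Hes5 at 45.7 ± 4.95, Nrarp at 22.6 ± 0.511, Hes1 at 22.3 ± 1.64 and Hey1 at 19.2 ± 0.860. In floxed libraries the order was Hes6 at 42.5 ± 0.570, Hes5 at 24.5 ± 1.51, Hey1 at 20.8 ± 0.089, Hes1 at 19.99 ± 0.049 and Nrarp at 16.3 ± 0.463. The gap between Hes6 and Hes5 was narrower in the Nestin-Cre libraries, and there Nrarp and Hes1 overlapped.

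The scarce genes formed a separate class. Hey2, Hes7 and Heyl averaged 0.957, 0.834 and 0.315 CPM per kilobase in Nestin-Cre libraries, against 0.920, 0.624 and 0.299 in floxed libraries. Hey2 and Hes7 overlapped in the Nestin-Cre libraries. By the length of the longest coding transcript the order changed, with Hes1 above Nrarp in Nestin-Cre libraries (31.0 against 22.6). Hey1 and Hes1 then stood above Hes5 in floxed libraries (28.0, 27.7 and 26.3). By that length Hey2 and Hes7 did not overlap in Nestin-Cre libraries (1.71 and 1.74 against 0.666 and 1.00). The order of neighbours in the middle, and the overlap of Hey2 and Hes7, thus depend on the gene model.

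As a share of the summed level of the 8 members per kilobase, Hes5 held 27.8% in Nestin-Cre libraries and 19.5% in floxed libraries. The share of Hey1 was 11.7% in Nestin-Cre libraries and 16.5% in floxed libraries, and that of Hes1 was 13.6% in Nestin-Cre libraries and 15.9% in floxed libraries. The share of Hes6 was 31.8% in Nestin-Cre libraries and 33.7% in floxed libraries. The sum itself averaged 164 CPM per kilobase in Nestin-Cre libraries and 126 in floxed libraries.

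Ratios of counts within a library do not depend on scaling between libraries. Among the 6 members with at least 100 counts in every library, 15 pairs were compared, and 14 had ratios that did not overlap between groups. The pairs reuse the same 6 genes, of which 5 had separate groups already in CPM, and single genes did so in 64.9% of cases, so this count is no result about the members. With 2 against 2 libraries an exact two-sided permutation test cannot go below p = 0.333, so the ratios are given without a test. Hes5 to Hey1 was 0.888 and 1.10 in Nestin-Cre libraries, against 0.470 and 0.515 in floxed libraries, a 2.01-fold difference and the largest of the 15 pairs. There were fewer Hes5 than Hey1 counts in all libraries but Nestin-Cre replicate 2, with no scaling by gene length.

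Hes1 to Hes5 was 0.832 and 0.643 in Nestin-Cre libraries and 1.27 and 1.17 in floxed libraries. Hes5 counts thus exceeded Hes1 counts in the Nestin-Cre libraries and fell short of them in the floxed libraries, with no scaling by gene length. Per kilobase of annotated exon, Hes5 stood above Hes1 in every library, in floxed libraries at 23.5 and 25.6 against 19.96 and 20.03. By the longest coding transcript, Hes5 stood below Hes1 in floxed libraries, at 25.1 and 27.4 against 27.7 and 27.8. Hes5 to Nrarp was 1.00 and 1.13 in Nestin-Cre libraries and 0.774 and 0.811 in floxed libraries. Hes1 to Hey1, whose calls held in 8 of 15 alternatives each, was 0.738 and 0.709 in Nestin-Cre libraries and 0.597 and 0.603 in floxed libraries. Hes1 to Hey2 was the pair whose groups overlapped.

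**Figure D3:**
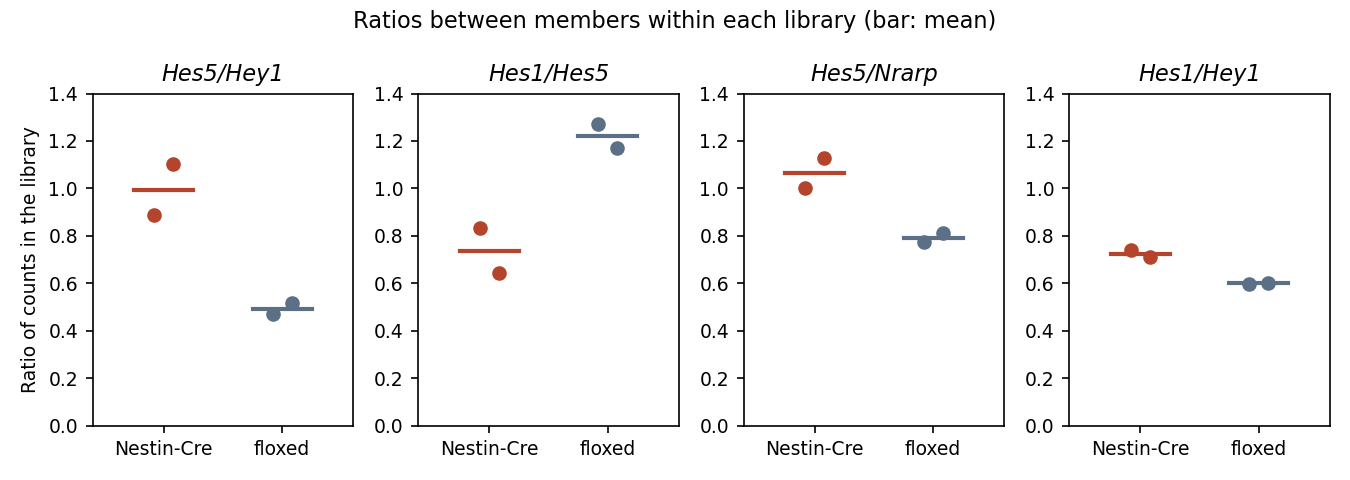
Ratio of the counts of 2 members within each library (vertical axis from 0, no unit), Nestin-Cre left and floxed right; points are libraries and bars means. Hes5 to Hey1 was 0.888 and 1.10 in Nestin-Cre libraries against 0.470 and 0.515 in floxed libraries, and Hes1 to Hes5 lay on the other side of 1 in the floxed libraries. Counts are not scaled by gene length, so a ratio of 1 does not mark equal levels.

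Over the 4 libraries, the profiles closest to that of Hes5 were those of Fbln5, Lims2 and Slc17a9, at distances of 0.11, 0.11 and 0.12 between centred log2 CPM among 12386 genes compared. The profiles closest to Nrarp were those of Pigyl, Rdm1 and Hist1h2bc, at distances of 0.01, 0.02 and 0.03. Hist1h2bc belongs to a family of near-identical histone genes whose reads could have been split. A profile of 4 libraries in 2 groups holds little beyond the fold change, and these 6 genes had log2 fold changes of 0.44 to 0.85.

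The receptors and ligands that act before the members moved both ways. Counts of calls in this and the following lists stand against 15.1% of all genes tested called higher and 18.1% called lower. Of 12 tested, 5 were higher, 3 lower and 4 did not pass, with a median log2 fold change of 0.08. Without Nestin-Cre replicate 2 the list held 5 calls and its median was 0.04, and the median was 0.11 without Nestin-Cre replicate 1 and 0.12 without floxed replicate 2. The ligand genes Dll1 (134 ± 2.79 CPM in Nestin-Cre and 73.3 ± 2.36 CPM in floxed libraries) and Dll3 (44.5 ± 1.57 CPM in Nestin-Cre and 26.9 ± 0.217 CPM in floxed libraries) rose, Dll1 by a log2 fold change of 0.87 ± 0.04, close in size to that of Hes5. The ligand gene Jag1 fell to 17.8 ± 0.270 CPM in Nestin-Cre libraries, against 43.2 ± 1.82 CPM in floxed libraries. Dner, a neuronal Notch-related gene, rose by 0.19 ± 0.03. Of the receptors, Notch1 was 0.07 ± 0.03 higher (adjusted p = 0.0313) and Notch2 0.15 ± 0.04 lower on the log2 scale, while Notch3 (0.05 ± 0.04) and Notch4 (0.46 ± 0.21) did not pass.

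Enzymes that process ligands and receptors also moved both ways, with 6 of 19 higher, 5 lower and 8 not called (median 0.05, 0.03 to 0.08 over 10 alternatives). The receptor-cleaving protease genes Adam10 (-0.24 ± 0.03) and Adam17 (-0.20 ± 0.04) were lower, as was the proprotein convertase gene Furin (-0.22 ± 0.04). Neurl1b, which encodes a ligand ubiquitin ligase, was higher (0.24 ± 0.04). Fringe genes, whose enzymes add sugars to the receptor, gave 0.23 ± 0.09 for Mfng (adjusted p = 0.0473) and -0.08 ± 0.03 for Lfng (adjusted p = 0.0575).

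Within the nuclear complex, 4 of 10 tested genes were higher, 1 lower and 5 not called. Its median was -0.06, and it came to 2.8e-05 with no low-count filter, to -0.03 with upper quartile scaling, and to -0.02 without Nestin-Cre replicate 2 or without floxed replicate 1. Rbpj itself was lower at 93.3 ± 0.934 CPM in Nestin-Cre libraries and 102 ± 2.35 CPM in floxed libraries (-0.13 ± 0.04, adjusted p = 0.0043). Spen, which encodes an RBPJ-associated corepressor, was higher (0.31 ± 0.03), and so was Bend6 (0.41 ± 0.05), whose protein antagonizes Notch in neural cells. Of 10 attenuators of the pathway 3 were lower, 0 higher and 7 not called (median -0.05, or -0.02 with upper quartile scaling), and without Nestin-Cre replicate 1 or floxed replicate 1 the list held 1 call. Calls among the attenuators were about as common as the 33.1% over all genes tested, so their count is no result about attenuators. Dtx3l fell by 0.78 ± 0.11 on the log2 scale (adjusted p = 1.6e-07), and smaller falls were called for Nedd4 (adjusted p = 0.0341) and Dtx2 (adjusted p = 0.0376), all encoding ubiquitin ligases.

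Genes listed here as corepressors of Hes and Hey proteins gave 4 higher (Aes, Tle6, Hdac2 and Sirt1), 2 lower (Tle1 and Tle3) and 5 not called of 11 tested. Whether each of them acts as a corepressor was not tested. Their median of 0.03 turned to -0.01 without Nestin-Cre replicate 1 and ranged up to 0.06, and the list held 3 calls without floxed replicate 2. The Groucho-family gene Tle3 was lower (-0.26 ± 0.03), and so was Tle1 (-0.12 ± 0.04). The histone deacetylase gene Hdac2 (0.11 ± 0.03) and Tle6 (0.23 ± 0.06) were higher.

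Proneural genes, some of which Hes proteins are known to repress, were higher in Nestin-Cre libraries, as Hes5 was. Of 8 tested proneural genes 7 were higher and 1 did not pass, with a median of 0.23 (0.23 to 0.26 over 10 alternatives). Neurod6, a marker of differentiating cortical neurons, rose by 0.44 ± 0.03, Bhlhe22 by 0.23 ± 0.04 and Neurog2 by 0.55 ± 0.12. Neurod4 was counted rarely and gave -0.71 ± 0.46 (adjusted p = 0.249).

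Related helix-loop-helix genes went down where they were called. Of 7 tested, 5 were lower and 2 did not pass, with a median of -0.21, which was -0.13 without Nestin-Cre replicate 1. The Hes-related repressor genes Bhlhe40 (-0.27 ± 0.03) and Bhlhe41 (-0.50 ± 0.06) were lower. So were Id4 (-0.46 ± 0.07) and Id1 (-0.21 ± 0.05), of the Id proteins that block proneural factors. Helt, at under 1 CPM in both groups, gave 0.77 ± 0.47 and Id2 0.07 ± 0.03, and neither passed (adjusted p = 0.223 and 0.0818). Hes2 and Hes3, the remaining Hes genes with counts here, had at most 2 counts in a library and were not tested.

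Other genes reported as Notch targets were lower, opposite to Hes5 and Nrarp. Of 7 tested, 6 were lower and Fabp7, the radial glial fatty acid-binding protein gene, did not pass (-0.03 ± 0.02, adjusted p = 0.237), with a median of -0.62. The astrocyte filament gene Gfap fell by 1.42 ± 0.02, the matrix gene Tnc by 0.65 ± 0.02, the cyclin gene Ccnd1 by 0.62 ± 0.02 and the adhesion gene Vcam1 by 0.70 ± 0.04 on the log2 scale.

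**Figure D4:**
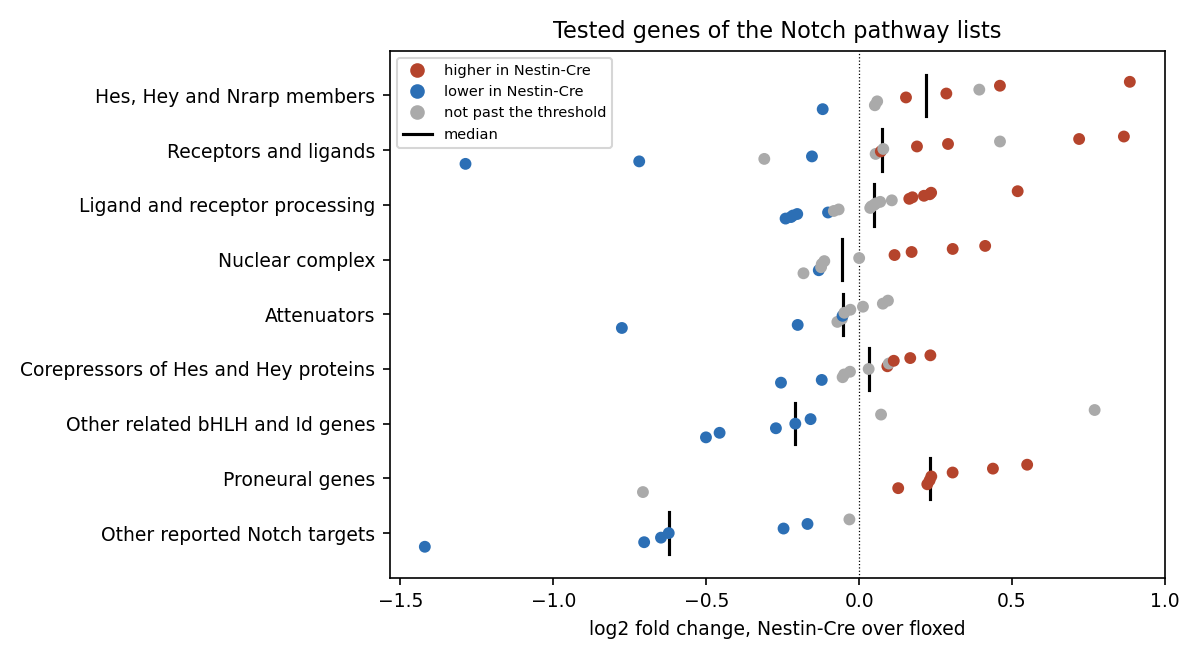
Log2 fold change, Nestin-Cre over floxed (horizontal axis), of the tested genes of each Notch pathway list (rows); points are genes, coloured by the call, and black bars mark medians. The median of the members is 0.22, that of the proneural genes 0.23 and that of other reported Notch targets -0.62.

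Markers of the cell types that use these genes also differed between the groups, and their part in the members' changes was not tested. Over all genes tested, 15.1% were called higher and 18.1% lower. In bulk RNA, fewer cells of a type and less RNA per cell cannot be told apart. The tested genes Fabp7, Gfap, Neurod6, Neurog2 and Insm1 stand in a pathway list and in a marker list, so these lists are not independent. Of 10 neural stem and radial glial markers, 6 were lower and 4 did not pass (median -0.25), and their summed level was 6112 and 6110 CPM in Nestin-Cre libraries and 7166 and 7127 CPM in floxed libraries. The Cre driver gene Nes was among the lower ones (-0.22 ± 0.02). Much of the gap in the sum lay in Vim, at 2421 CPM on average in Nestin-Cre and 2994 CPM in floxed libraries. Slc1a3, at 1144 CPM in Nestin-Cre and 1459 CPM in floxed libraries, made up much of the rest. Sox2, Pax6, Fabp7 and Sox1 were the 4 that did not pass. Hes5 was higher in the libraries with the lower sum, and a link between them was not tested.

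Markers of intermediate progenitors, neurons and the oligodendrocyte lineage were higher where they were called, with 1 exception. Of 5 tested intermediate progenitor markers 4 were higher (median 0.24), with sums of 196 and 197 CPM in Nestin-Cre libraries and 163 and 162 CPM in floxed libraries. Eomes did not pass (-0.19 ± 0.23, adjusted p = 0.580) and was scarce, at 1.76 CPM in Nestin-Cre and 2.00 CPM in floxed libraries. Much of the sum was Btg2, at 117 CPM on average in Nestin-Cre and 96.4 CPM in floxed libraries. Of 8 neuronal markers 6 were higher (median 0.19), with sums of 2743 and 2720 CPM in Nestin-Cre libraries and 2360 and 2354 CPM in floxed libraries. Of 9 oligodendrocyte lineage markers 5 were higher and 1 lower (median 0.24), with sums of 1606 and 1644 CPM in Nestin-Cre libraries and 1441 and 1485 CPM in floxed libraries. Astrocyte markers went the other way, with 5 of 7 lower and 1 higher (median -0.31, or -0.20 with no low-count filter) and sums of 2037 and 2046 CPM in Nestin-Cre libraries and 2905 and 2924 CPM in floxed libraries.

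Of 12 choroid plexus markers 10 were higher and 2 not called, and their median of 2.37 was the farthest from 0 of the 11 marker lists. They summed to 1488 and 1501 CPM in Nestin-Cre libraries, against 263 and 270 CPM in floxed libraries, and Ttr alone averaged 1283 CPM in Nestin-Cre and 182 CPM in floxed libraries. Of 4 tested ependymal and multiciliated markers 1 was higher and 1 lower, and their median of 0.02 took either sign when libraries were left out (-0.11 without Nestin-Cre replicate 2 and 0.14 without floxed replicate 1).

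Hey genes are also known from blood vessels. Endothelial markers were scarce, with sums of 30.2 and 31.1 CPM in Nestin-Cre libraries and 34.8 and 36.2 CPM in floxed libraries, and of 11 tested 1 was higher and 2 lower (median 0.13, and 0.19 to 0.24 without Nestin-Cre replicate 1 or floxed replicate 1). This count of calls is near the 33.1% called over all genes tested and is no result about endothelial markers. The lower sum rested on Flt1, at 4.23 CPM on average in Nestin-Cre and 11.9 CPM in floxed libraries. Cdh5 was also lower (1.02 CPM in Nestin-Cre and 2.40 CPM in floxed libraries), and Kdr was higher (4.34 and 2.48 CPM). Hey1 averaged 62.8 CPM in Nestin-Cre libraries and 67.9 CPM in floxed libraries, and which cells its transcripts came from was not tested. Of 8 tested mural markers 4 were lower and 1 higher (median -0.64, and -1.05 without Nestin-Cre replicate 1), with sums of 28.0 and 28.4 CPM in Nestin-Cre libraries and 32.5 and 31.0 CPM in floxed libraries, and without Nestin-Cre replicate 2 the list held 3 calls. Of 8 fibroblast and meningeal markers 6 were lower and 1 higher (median -0.92), with sums of 58.7 and 63.0 CPM in Nestin-Cre libraries and 179 and 175 CPM in floxed libraries. Of 7 tested microglial markers 5 were lower (median -1.53, or -0.86 without Nestin-Cre replicate 2), with sums of 37.7 and 33.0 CPM in Nestin-Cre libraries and 37.7 and 37.2 CPM in floxed libraries, and with a stricter low-count filter 2 were called. No marker of any of the 11 lists was at 0 in all 4 libraries.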

How the data were processed

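The mm10 build is named per the submitters' processing notes, which also list HISAT2 2.2.1, HTSeq 0.12.4 and DESeq2 1.26.0 without their roles. The annotation and the counting's strand setting were not given in the sources used here. The authors deposited whole-number counts for each gene symbol and library, not normalized. Closing lines that name no gene, 25.2% to 26.1% of all counted entries, were set aside.

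Libraries were grouped by their titles. The contrast of genotypes used the quasi-likelihood test of edgeR 4.0.16 (R 4.3.3, non-legacy) after filterByExpr and TMM scaling. P-values of the 15012 genes kept were adjusted by Benjamini-Hochberg, and 0.05 was the threshold. The steps were also run on simulated data, whose outcome is not reported here and is no check of the calls. The SE was derived from F and the log2 fold change, and it gave the 95% intervals. Levels are CPM, scaled to all gene counts of a library. Gene models came from GENCODE M21 on GRCm38, the assembly of mm10, in which 95.7% of the symbols were found, and promoters from RefSeq on GRCm38.p6. Alternatives were other scalings and filters, the legacy fit, DESeq2 1.42.0, limma 3.58.1 voom, a test against a 1.2-fold change, a replicate block, a correction for GC content and length, and omission of each library.

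Members and lists were chosen with earlier results of these data known. The genes named are all members, Prrc2b, Nes and the Y-linked genes. From each pathway list up to 4 tested genes with the smallest p are named, and any that go against most of their list. Some genes that this rule names are not reported here. For the 2 members with the smallest p, the 3 genes with the nearest profile are also named. List genes named outside this rule, and all marker genes named, were chosen after their values were seen.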

Additional observations from a re-analysis of the deposited data

How the results depend on the processing

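With 2 libraries a group the calls for Hes5 and Nrarp held in 15 of 15 alternatives, whereas those for Hes1 and Hey1 held in 8 of 15 each. DESeq2 called 2697 genes, 1055 higher and 1642 lower, and a test against a 1.2-fold change called 1039, 279 higher and 760 lower. Of the members, 3 were called by DESeq2 and 3 with no low-count filter, 0 of them called lower in either case, and 2 against a 1.2-fold change, both higher. With upper quartile scaling 0 members were called lower, and Hey1 kept its sign at -0.092 but missed the threshold (adjusted p = 0.0937). Hes1 gave 0.15 with no low-count filter, with DESeq2 and against a 1.2-fold change, and 0.10 after correction for GC content and length. Hey1 gave -0.12 with no low-count filter, with DESeq2 and against a 1.2-fold change, where Hes6 at 0.29 also missed. Omission of each library in turn gave 3 to 4 members called, 0 to 1 of them called lower, and log2 fold changes of 0.074 to 0.22 for Hes1, -0.17 to -0.075 for Hey1, -0.040 to 0.14 for Hey2 and -0.12 to 0.27 for Heyl. The cause of these losses was not tested. Where a library was omitted, the lone library of its group was assumed to vary like the others.

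The replicate block called 5323 genes, against 4974 without it, and changed no member's call. Deviations of same-numbered libraries from their group means had a correlation of -0.02. With 2 libraries a group both numbers give this same value, so it cannot exclude pairing. At 27 to 49 counts a library, depth limits Hes7 and Heyl to wide intervals.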
